A study of Populus ussuriensis with 8 samples.

Results

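The circadian clock of plants was followed here through 4 loci of poplar: LHY1 (Potri.002G180800), LHY2 (Potri.014G106800), TOC1 (Potri.015G061900) and GIGANTEA (Potri.005G196700). They were chosen by identifier and not by a rule on their measured values, but earlier results of these data were known. They are 4 of the 36385 genes listed in each library. Their gene names come with that choice. The files do not pair identifiers with names, so the names were not checked against an annotation. The RNA came from the basal ends of stem cuttings. The plants were Populus ussuriensis, a poplar tree, grown in vitro, and the cuttings stood on half-strength Murashige and Skoog medium with sucrose. There were 4 groups of 2 libraries: cuttings on medium with 1 µM methyl jasmonate (MeJA, a volatile form of the hormone jasmonic acid) harvested 1 h or 0.5 h after cutting, and cuttings on medium without MeJA harvested at 1 h or 0.5 h. The labels name no mutant or transgene, and their texts disagree on how old the source plants were. Whether the 2 libraries of a group came from separate cultures is not stated, so the p-values below reflect variation among these libraries only, and it may be technical.

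The plant clock is a loop of genes that repress one another and so rise and fall once a day. LHY encodes a MYB-type repressor that in Arabidopsis thaliana is most abundant around dawn. TOC1, a pseudo-response regulator, and GIGANTEA, a large nuclear protein that helps to control the turnover of the TOC1 protein and the timing of flowering, are transcribed in Arabidopsis towards the end of the day and are repressed by LHY in the morning. Poplar carries a pair of LHY genes, and in hybrid aspen trees with lowered LHY transcript levels have a shortened clock period and altered bud burst and cold hardiness. The hour of day of each harvest is not given in the sources used here. Time after cutting, hour of day and any batch shared by the libraries of 1 time cannot be told apart.

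All libraries resembled one another in their summed values and in relative depth. The deposited values were read as FPKM, a unit that corrects fragment numbers for the length of the transcript and the size of the library. They summed to between 549538 and 577002 per library. As the unit is already scaled to library size, these sums do not measure that size. Relative depth, read from the steps between low values, was 0.927 to 1 times that of untreated 0.5 h replicate 1. Only ratios near equal depth were searched, so a large difference in depth would have been missed. Libraries of 1 group had Spearman correlations of 0.983 to 0.987 across the 24347 genes tested, and libraries of different times 0.892 to 0.924. Tissue markers were not checked, because the files pair no identifiers with names.

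Transcripts of both LHY genes were abundant in every library, TOC1 transcripts were at an intermediate level and GIGANTEA transcripts were scarce. Summed over isoforms, LHY2 averaged 216 ± 21.5 FPKM, LHY1 136 ± 7.48, TOC1 15.9 ± 1.53 and GIGANTEA 3.17 ± 0.663 (SD, n = 8). That order, LHY2 over LHY1 over TOC1 over GIGANTEA, held in each of the 8 libraries. Among the tested genes of a library, LHY2 stood above 98.3% to 99.2% of genes and LHY1 above 97.1% to 97.8%. TOC1 stood above 68.4% to 72.9% and GIGANTEA above 20.9% to 28.9%. Levels of different genes are compared per length here, on the FPKM scale. The sums run over 11 listed isoforms for LHY2, 7 for LHY1, 8 for TOC1 and 5 for GIGANTEA. How reads were assigned to isoforms is not stated, so these levels and ranks may carry that assignment.

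**Figure D1:**
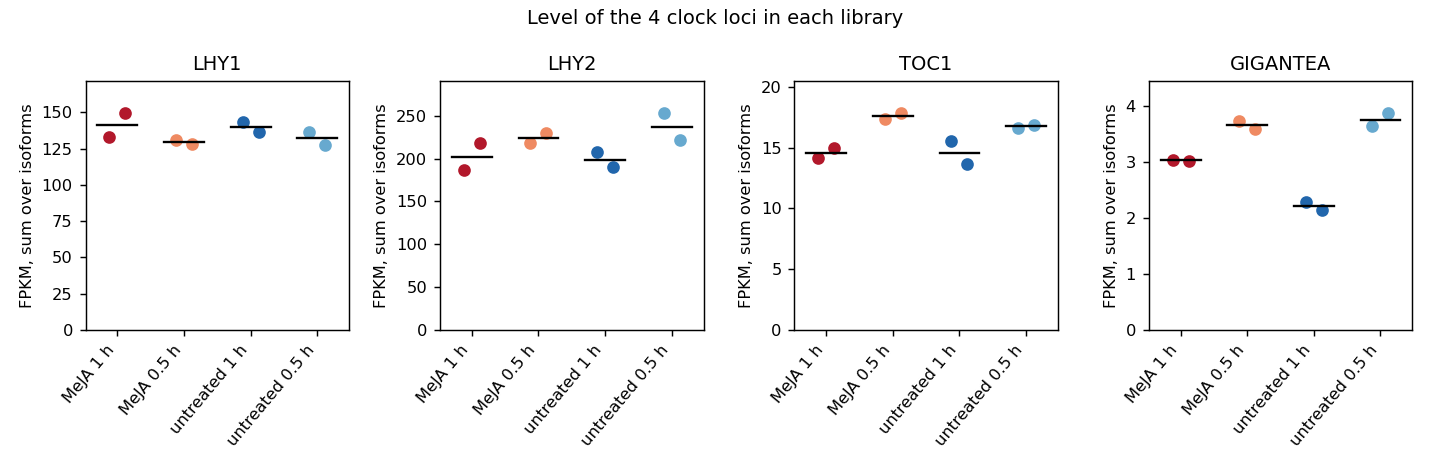
FPKM summed over isoforms (vertical axis, from 0, with its own scale per gene) for LHY1, LHY2, TOC1 and GIGANTEA in each of the 4 groups. Points are the 2 libraries of a group and bars their mean. GIGANTEA is at 2.14 to 3.04 FPKM in the 1 h libraries and at 3.59 to 3.87 in the 0.5 h libraries, while LHY1 overlaps between the times.

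The first question was whether clock transcripts moved between 0.5 h and 1 h after cutting. As deposited, GIGANTEA and TOC1 fell over both treatments, and neither LHY gene passed the test. A gene was called when its adjusted p was under 0.05 in limma, fitted to log2(FPKM + 1) of all tested genes with Benjamini-Hochberg adjustment. The 2 called loci of 4 stand against a background in which 60.2% of tested genes were called, 19.3% as higher and 40.9% as lower at 1 h. The values at 1 h and 0.5 h did not overlap for 3 of the 4 loci, against 55.4% of all tested genes. With 4 loci, neither share is read as a particular of the clock genes. In tissue taken in bulk, fewer cells that express a gene and less RNA per cell cannot be told apart.

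LHY1, one of the pair of dawn repressors, changed little as deposited. It was at 133 and 149 FPKM in the MeJA 1 h libraries and at 131 and 128 FPKM in the MeJA 0.5 h libraries. Without MeJA it was at 143 and 136 FPKM at 1 h and at 137 and 127.5 FPKM at 0.5 h. The 1 h libraries lay on average above those of 0.5 h, but the ranges overlapped, since untreated 0.5 h replicate 1 exceeded both MeJA 1 h replicate 1 and untreated 1 h replicate 2. The mean over both treatments was 140.5 ± 7.28 FPKM at 1 h and 131 ± 4.15 FPKM at 0.5 h (SD, n = 4 each), a fold of 1.07. The log2 difference was 0.10 ± 0.08 (SE; limma adjusted p = 0.273), with a 95% interval from -0.07 to 0.27. That interval spans changes of -4.52% to 20.2% in FPKM + 1. Without MeJA 1 h replicate 2 the difference was 0.06. After median centring of all 8 libraries it was 0.28 and was called (limma adjusted p = 0.0111).

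In order of group means, LHY1 ran from MeJA 1 h (141 ± 11.5 FPKM) through untreated 1 h (139.9 ± 4.97) and untreated 0.5 h (132 ± 6.52) to MeJA 0.5 h (129.8 ± 2.02; SD, n = 2). No neighbours in this order were further apart than the larger of their SDs, except untreated 1 h over untreated 0.5 h. The highest of the 8 libraries was 1.17 times the lowest. On the log2(FPKM + 1) scale that range was 0.23, and 2.1% of tested genes had a smaller one.

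LHY2, the other LHY gene, stood lower at 1 h without passing the test. It was at 186 and 218 FPKM in the MeJA 1 h libraries and at 218 and 230.4 FPKM in the MeJA 0.5 h libraries. Without MeJA it was at 207 and 190.1 FPKM at 1 h and at 253 and 222 FPKM at 0.5 h. The 2 times barely separated: MeJA 1 h replicate 2, at 217.73 FPKM, lay just under MeJA 0.5 h replicate 1, at 217.736 FPKM. Over both treatments LHY2 averaged 200.3 ± 14.8 FPKM at 1 h and 231 ± 15.6 FPKM at 0.5 h (SD, n = 4 each), a fold of 0.868. The log2 difference was -0.20 ± 0.09 (SE; limma adjusted p = 0.0647), with a 95% interval from -0.40 to -0.01. Leaving out 1 library at a time, it ranged from -0.26 without MeJA 1 h replicate 2 to -0.16 without untreated 0.5 h replicate 1. Under other scalings it was -0.03 after median centring (limma adjusted p = 0.818) and -0.26 after quantile normalization (limma adjusted p = 0.0462). Only the latter passed.

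By group mean, LHY2 was highest in untreated 0.5 h (237 ± 21.7 FPKM), then MeJA 0.5 h (224 ± 8.93), MeJA 1 h (202 ± 22.3) and untreated 1 h (199 ± 12.1; SD, n = 2). Each step down this order was smaller than the larger SD of the 2 groups. Within a single treatment the log2 difference between the times was -0.15 ± 0.12 with MeJA (limma adjusted p = 0.333) and -0.25 ± 0.12 without (limma adjusted p = 0.109), and passed in neither. With MeJA it was -0.27 without MeJA 1 h replicate 2 and -0.04 without MeJA 1 h replicate 1. In untreated cuttings it was -0.16 without untreated 0.5 h replicate 1, and after median centring it was -0.01 with MeJA and -0.04 without.

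TOC1, the evening regulator that closes the loop onto LHY, fell as deposited. It was at 14.2 and 14.98 FPKM in the MeJA 1 h libraries and at 17.4 and 17.8 FPKM in the MeJA 0.5 h libraries. Without MeJA it was at 15.5 and 13.7 FPKM at 1 h and at 16.6 and 16.9 FPKM at 0.5 h. All 4 libraries of 1 h were below all 4 of 0.5 h. Mean levels were 14.6 ± 0.840 FPKM at 1 h and 17.2 ± 0.525 FPKM at 0.5 h (SD, n = 4 each), a fold of 0.849. The log2 difference was -0.22 ± 0.07 (SE; limma adjusted p = 0.0191), with a 95% interval from -0.38 to -0.07. Without MeJA 0.5 h replicate 2, MeJA 1 h replicate 1 or untreated 1 h replicate 2 the adjusted p was 0.0529, 0.0593 and 0.0573, in that order. Averaging isoforms in place of summing them leaves the fold in FPKM unchanged but brings the level nearer to the added 1 FPKM. The log2 difference was then -0.16 and was not called (limma adjusted p = 0.0692). Under other scalings it was not called either, at -0.05 after median centring (limma adjusted p = 0.61) and -0.11 after quantile normalization (limma adjusted p = 0.231).

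Split by treatment, the TOC1 difference was -0.26 ± 0.10 with MeJA (limma adjusted p = 0.0665) and -0.19 ± 0.10 without (limma adjusted p = 0.15), so neither treatment alone passed. Group means ran from MeJA 0.5 h (17.6 ± 0.320 FPKM) through untreated 0.5 h (16.7 ± 0.154) to untreated 1 h (14.6 ± 1.33) and MeJA 1 h (14.6 ± 0.588; SD, n = 2). The last pair of this order could not be separated. After median centring the difference between the times was -0.11 with MeJA and 0.02 without.

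GIGANTEA, the clock gene at the lowest level, fell as deposited. It was at 3.04 and 3.03 FPKM in the MeJA 1 h libraries and at 3.73 and 3.59 FPKM in the MeJA 0.5 h libraries. Without MeJA it was at 2.29 and 2.14 FPKM at 1 h and at 3.64 and 3.87 FPKM at 0.5 h. The 0.5 h libraries of both treatments lay close together, the MeJA 1 h libraries were lower and the untreated 1 h libraries were lowest, with no overlap between 1 h and 0.5 h. Over both treatments the level fell to 2.62 ± 0.474 FPKM at 1 h, against 3.71 ± 0.124 FPKM at 0.5 h (SD, n = 4 each), a fold of 0.708. The log2 difference was -0.39 ± 0.11 (SE; limma adjusted p = 0.00925), with a 95% interval from -0.62 to -0.15.

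In untreated cuttings GIGANTEA fell by 0.56 ± 0.13 on the log2 scale (limma adjusted p = 0.00641), a fold of 0.590 in mean FPKM. It was the 1 locus of the 4 called there, where 48.6% of all tested genes were called. In MeJA cuttings its difference was -0.21 ± 0.13 (limma adjusted p = 0.232), a fold of 0.828. None of the 4 loci (0) was called in MeJA cuttings, where 43.3% of tested genes were. Of the 4, 1 locus (TOC1) had an unadjusted limma p under 0.05 there, as did 12594 of the 24347 tested genes. GIGANTEA lies in the range where adding 1 FPKM before taking logs compresses a change. With 0.1 added instead, the difference over both treatments was -0.50 and in untreated cuttings -0.74. Under 2 other scalings the untreated difference was smaller and missed the threshold, at -0.35 after median centring (limma adjusted p = 0.0546) and -0.36 after quantile normalization (limma adjusted p = 0.0508).

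**Figure D2:**
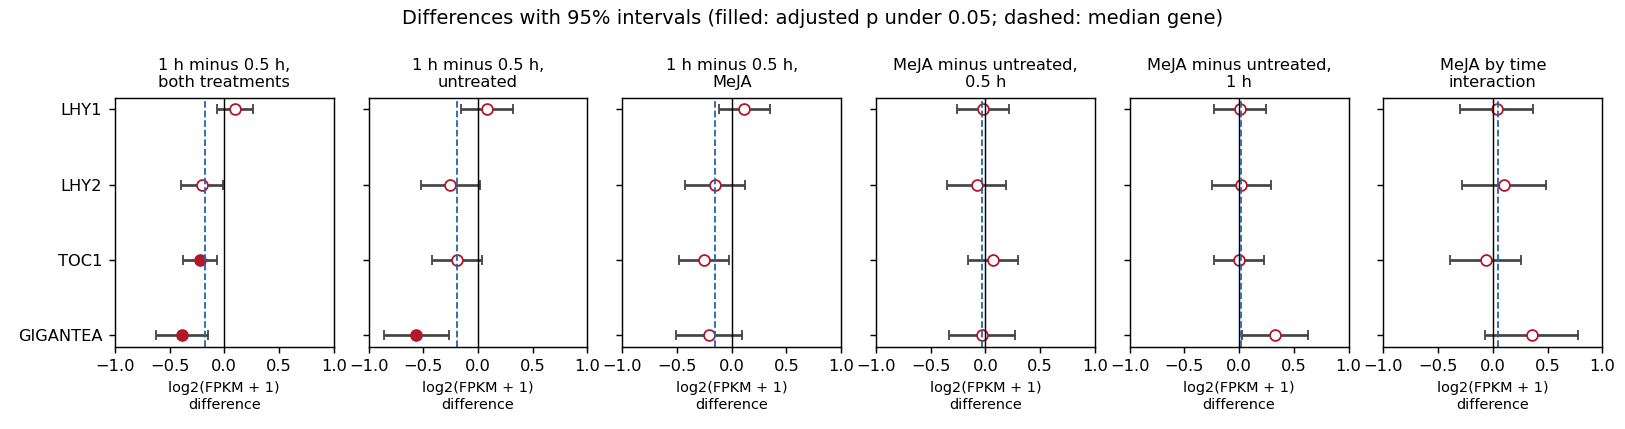
Differences in log2(FPKM + 1) (horizontal axis) with 95% confidence intervals from limma for the 4 loci, for 1 h minus 0.5 h over both treatments, untreated and MeJA, for MeJA minus untreated at 0.5 h and 1 h, and for the interaction. Filled points passed an adjusted p of 0.05 and the dashed line is the median tested gene. The intervals of LHY2, TOC1 and GIGANTEA over both treatments include that median, and that of LHY1 lies above it.

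These differences depended on the scale set between libraries. As deposited, the median tested gene moved by -0.17 between 0.5 h and 1 h on the log2 scale over both treatments. Relative to that median LHY1 stood at 0.27, LHY2 at -0.03, TOC1 at -0.05 and GIGANTEA at -0.21. When each library was centred on its median, LHY1 rose by 0.28 (limma adjusted p = 0.0111). Under that scaling LHY2 was at -0.03 (limma adjusted p = 0.818), TOC1 at -0.05 (limma adjusted p = 0.61) and GIGANTEA at -0.21 (limma adjusted p = 0.0982). None of these was called. After quantile normalization TOC1 was at -0.11 (limma adjusted p = 0.231) and GIGANTEA at -0.21 (limma adjusted p = 0.101), LHY1 was at 0.10 (limma adjusted p = 0.346), and LHY2 passed at -0.26 (limma adjusted p = 0.0462). The called set among the 4 loci was therefore TOC1 and GIGANTEA as deposited, LHY1 after centring and LHY2 after quantile normalization.

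By absolute size of the time difference over both treatments, 14.8% of tested genes moved less than LHY1, 30% less than LHY2, 32.7% less than TOC1 and 53.6% less than GIGANTEA. The median absolute difference was 0.36, and 2552 genes (10.5%) differed by at least 1 on the log2 scale. No confidence interval of the 4 loci reached 1 in size over both treatments, in untreated or in MeJA cuttings. The widest bound was -0.86, for GIGANTEA in untreated cuttings.

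**Figure D3:**
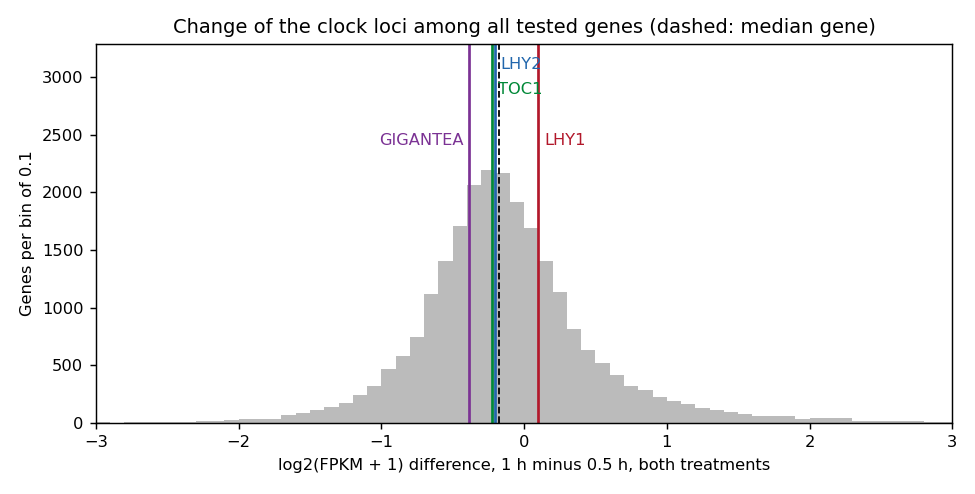
Histogram of the log2(FPKM + 1) difference, 1 h minus 0.5 h over both treatments, for tested genes (vertical axis, genes per bin of 0.1; differences beyond 3 in size are off the axis). Coloured lines mark the 4 loci and the dashed line the median gene at -0.17. All 4 loci lie in the central part, from GIGANTEA at -0.39 to LHY1 at 0.10.

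A ratio of FPKM + 1 between clock genes inside a library is not altered by median centring, which shifts all log2(FPKM + 1) values of a library equally. A factor applied to FPKM before 1 is added would alter it, mostly at low levels such as that of GIGANTEA. Quantile normalization, which shifts genes by different amounts, also alters it. As deposited, LHY1 stood higher against each of the other 3 loci at 1 h than at 0.5 h, without overlap between the times. The 3 ratios share LHY1, which stood 0.27 above the median tested gene in its log2 difference between the times. Taken singly, 55.4% of tested genes did not overlap between the times. Ratios of LHY1 to genes outside the 4 loci were not computed, so this is not read as a particular of the clock genes. The log2 ratio of LHY1 to LHY2, on FPKM + 1, was -0.51 ± 0.03 at 1 h and -0.81 ± 0.07 at 0.5 h (SD, n = 4 each), a difference of 0.30. The difference was 0.27 in MeJA cuttings and 0.34 in untreated cuttings. An exact two-sided permutation test gave p = 0.0286, the smallest that 4 against 4 libraries allow, and 0.0571 after adjustment over the 6 ratios tested, so the difference did not pass.

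LHY1 to TOC1, the ratio of a dawn to an evening gene, was 3.18 ± 0.06 at 1 h and 2.86 ± 0.08 at 0.5 h (log2, SD, n = 4 each). The difference of 0.32 had an exact permutation p of 0.0286, adjusted 0.0571, and was 0.37 in MeJA and 0.27 in untreated cuttings. On the linear scale LHY1 was 9.23 to 9.99 times TOC1 in the 1 h libraries and 7.21 to 8.22 times TOC1 in the 0.5 h libraries. LHY1 to GIGANTEA was 5.29 ± 0.19 at 1 h and 4.81 ± 0.07 at 0.5 h, a difference of 0.49 with the same exact permutation p and adjusted p. That difference was 0.33 in MeJA and 0.65 in untreated cuttings. After quantile normalization the differences were smaller, at 0.20 for LHY1 to TOC1 and 0.30 for LHY1 to GIGANTEA, and both ratios overlapped between the times, while LHY1 to LHY2 differed by 0.35 without overlap (adjusted exact permutation p = 0.129 for each).

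The other 3 ratios overlapped between the times. LHY2 to TOC1 was 3.69 ± 0.06 at 1 h and 3.67 ± 0.12 at 0.5 h (log2, SD, n = 4 each; exact permutation p = 0.771, adjusted 0.771), a difference of 0.02. LHY2 to GIGANTEA was 5.80 ± 0.20 at 1 h and 5.62 ± 0.12 at 0.5 h (exact permutation p = 0.171, adjusted 0.257). GIGANTEA to TOC1 was -2.11 ± 0.20 at 1 h and -1.95 ± 0.07 at 0.5 h (exact permutation p = 0.229, adjusted 0.274). The difference was 0.18 for LHY2 to GIGANTEA and -0.16 for GIGANTEA to TOC1, and with 0.1 in place of 1 FPKM added these were 0.30 and -0.26. GIGANTEA to TOC1 differed by 0.05 between the times in MeJA cuttings and by -0.37 in untreated cuttings, and over both by -0.23 without MeJA 1 h replicate 1 and by -0.09 without untreated 1 h replicate 1. After quantile normalization LHY2 to TOC1 turned to -0.15 and LHY2 to GIGANTEA to -0.05.

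**Figure D4:**
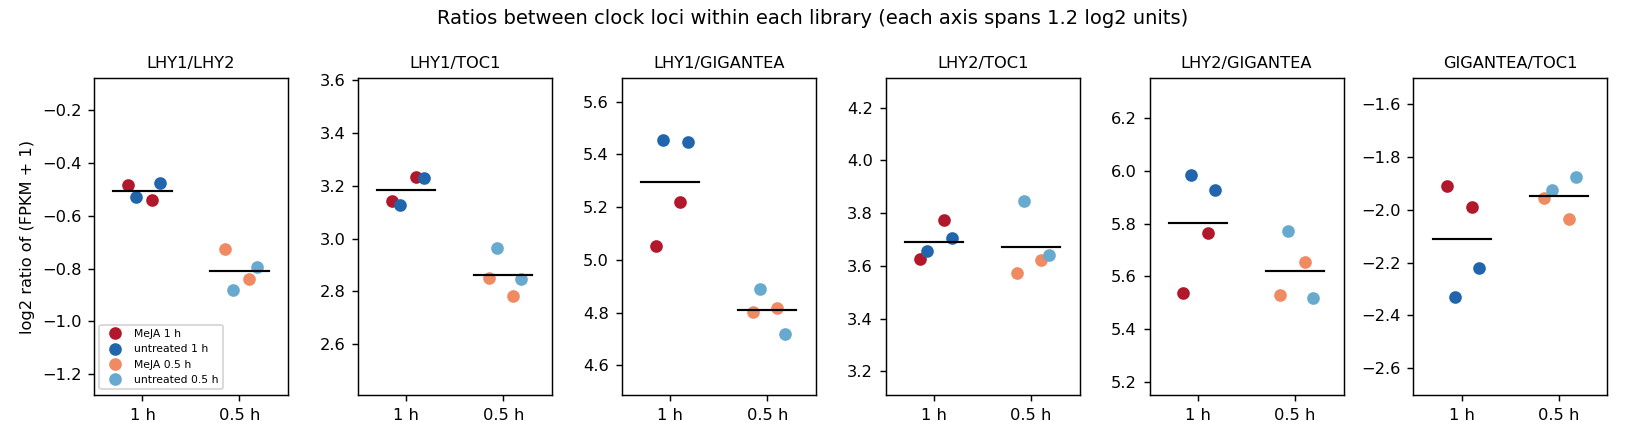
Log2 ratios of FPKM + 1 between pairs of the 4 loci (vertical axis, each spanning 1.2 units) in the 4 libraries of 1 h and the 4 of 0.5 h. Colours mark treatment and time and bars the mean of 4 libraries. As deposited, the 3 ratios with LHY1 on top are higher in each 1 h library than in any 0.5 h library, and the other 3 overlap.

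Which LHY gene appeared higher depended on how isoforms were added up. By the sum over isoforms, LHY2 was 1.39 to 1.46 times LHY1 in the 1 h libraries and 1.66 to 1.85 times LHY1 in the 0.5 h libraries. LHY2 lists 11 isoforms and LHY1 lists 7. By the mean per isoform, LHY2 was 0.887 to 0.928 times LHY1 at 1 h and 1.06 to 1.18 times LHY1 at 0.5 h. The order of the pair thus differed between the times on the second scale and not on the first, while the ratio was lower at 1 h on both. The LHY genes are paralogs, and reads that match both could have been assigned to either. This was not resolved.

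The isoforms of each locus were listed at nearly equal levels. For LHY1 the 7 isoforms averaged 17.9 to 21.8 FPKM over the 8 libraries, and for LHY2 the 11 isoforms averaged 17.6 to 21.9 FPKM. The 8 isoforms of TOC1 averaged 1.70 to 2.14 FPKM and the 5 of GIGANTEA 0.544 to 0.737 FPKM. The highest isoform was thus 1.22 to 1.35 times the lowest in each locus. Between isoforms, the coefficient of variation of the mean level was 8.49% for LHY1, 7.62% for LHY2, 8.78% for TOC1 and 11.7% for GIGANTEA. The median over 7725 genes with several isoforms and at least 5 FPKM in each library was 24.1%. The tool that assigned reads to isoforms is not stated, and whether reads that match several isoforms were divided evenly among them was not tested. Isoform levels, shares, the mean per isoform and the sums over isoforms may therefore carry that assignment.

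**Figure D5:**
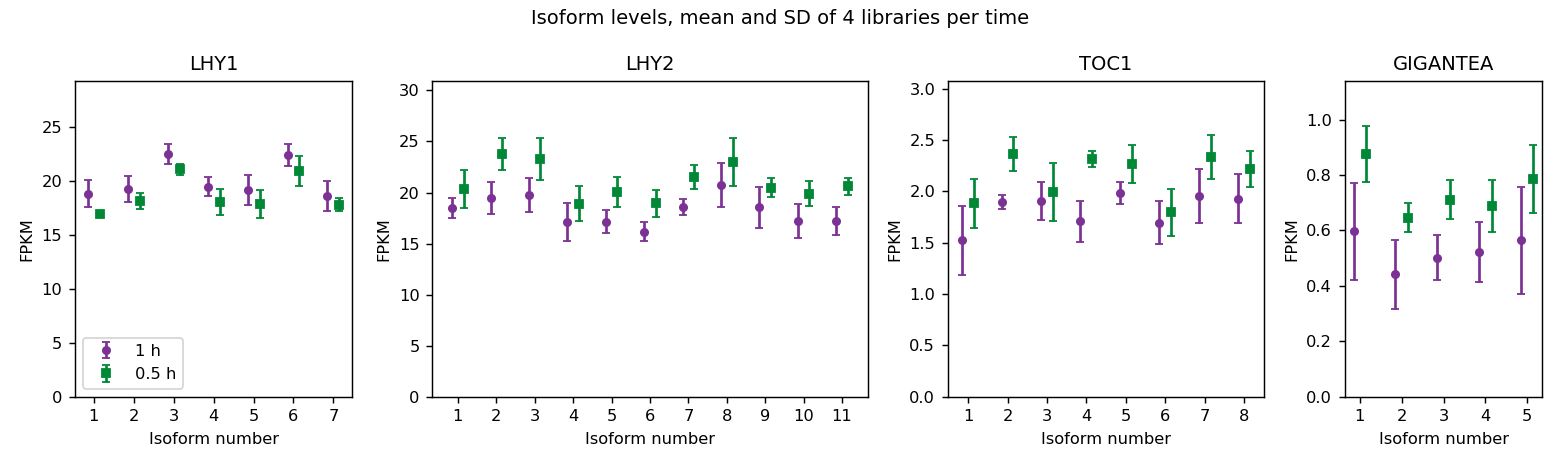
FPKM of each listed isoform (horizontal axis, isoform number) of the 4 loci. Points are means and bars SDs of the 4 libraries at 1 h (circles) and the 4 at 0.5 h (squares), both treatments together. The 7 LHY1 isoforms are higher on average at 1 h and all isoforms of LHY2, TOC1 and GIGANTEA are lower.

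Isoforms of a locus lay on the same side. They share much of their sequence, so their counts are not independent. Mean levels at 1 h were above those at 0.5 h for 7 of 7 LHY1 isoforms, and below them for 11 of 11 LHY2, 8 of 8 TOC1 and 5 of 5 GIGANTEA isoforms. Such counts are not given for other genes, and the median tested gene moved by -0.17. They are therefore not read as a particular of the clock genes. In a limma fit of 47164 transcripts, 55.3% of which were called between 0.5 h and 1 h, 26 of the 31 isoforms were tested. None of the GIGANTEA isoforms (0) reached 1 FPKM in 2 libraries, so they were not. Called lower were 6 LHY2 isoforms and 1 TOC1 isoform, and no LHY1 isoform (0) was called or had an unadjusted p under 0.05. Of all transcripts tested, 60.9% had such an unadjusted p.

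LHY2 isoform 2 fell to 19.4 ± 1.58 FPKM at 1 h, against 23.8 ± 1.54 FPKM at 0.5 h (SD, n = 4 each), which is -0.28 ± 0.09 on the log2 scale (SE; limma adjusted p = 0.0169). TOC1 isoform 4 fell to 1.71 ± 0.201 FPKM at 1 h, against 2.32 ± 0.0812 FPKM at 0.5 h, a log2 difference of -0.29 ± 0.09 (limma adjusted p = 0.0178). Isoform 1 of LHY1 had the largest difference in that gene, at 18.9 ± 1.24 FPKM at 1 h and 16.9 ± 0.152 FPKM at 0.5 h (limma adjusted p = 0.123). These 3 were picked as the extremes of their locus. For GIGANTEA, isoform 1 was at 0.597 ± 0.174 FPKM at 1 h and 0.876 ± 0.102 FPKM at 0.5 h.

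The share of each isoform within its locus was tested on log2 odds in limma over 24868 isoforms, of which 0.105% were called between the times. Of the 31 isoforms 17 qualified (7 of LHY1, 2 of LHY2 and 8 of TOC1), and none (0) was called or had an unadjusted p under 0.05. Of all shares tested, 9.33% had such an unadjusted p. LHY2 isoform 2 held 9.71% ± 0.462 of the gene at 1 h and 10.3% ± 0.169 at 0.5 h (SD, n = 4 each; limma adjusted p = 0.688). TOC1 isoform 3 held 13.1% ± 1.16 at 1 h and 11.6% ± 1.39 at 0.5 h (limma adjusted p = 0.561). GIGANTEA isoform 5, below the level tested, held 21.7% ± 6.77 at 1 h and 21.3% ± 3.89 at 0.5 h. No share of the 4 loci (0) was called between MeJA and untreated cuttings either, where 0% of all shares were called and 1258 (5.06%) had an unadjusted p under 0.05.

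The second question was whether MeJA altered clock transcripts. None of the 4 loci (0) was called in limma at 0.5 h, at 1 h, over both times or for the interaction, against a background of 0% of tested genes in each. At unadjusted p under 0.05, 1899 genes were found at 0.5 h, 1444 at 1 h, 890 over both times and 2268 for the interaction. Among the 4 loci there was 1 such value, for GIGANTEA at 1 h. Among transcripts, 0% were called over both times, where 1814 had an unadjusted p under 0.05, and no isoform of the 4 loci (0) was among the calls.

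GIGANTEA at 1 h was at 3.03 ± 0.00403 FPKM with MeJA and 2.22 ± 0.103 FPKM without (SD, n = 2 each), a fold of 1.37. The log2 difference was 0.33 ± 0.13 (SE; limma unadjusted p = 0.0355, adjusted p = 0.806), with a 95% interval from 0.03 to 0.63. By size, 91% of tested genes differed less at 1 h. At 0.5 h GIGANTEA was at 3.66 ± 0.101 FPKM with MeJA and 3.76 ± 0.164 FPKM without, a log2 difference of -0.03 ± 0.13 (limma adjusted p = 0.981). The difference between the 2 times, tested as the interaction, was 0.36 ± 0.19 with a 95% interval from -0.07 to 0.78 (limma adjusted p = 0.605). A smaller fall of GIGANTEA over time with MeJA was therefore not shown.

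For the other loci the MeJA differences were near 0, with intervals that leave room for changes of about the size seen over time. LHY1 was at 0.01 (95% interval -0.23 to 0.25; limma adjusted p = 0.997) at 1 h and at -0.02 (-0.26 to 0.21; limma adjusted p = 0.981) at 0.5 h. LHY2 was at 0.02 (-0.25 to 0.29; limma adjusted p = 0.996) at 1 h and at -0.08 (-0.35 to 0.19; limma adjusted p = 0.93) at 0.5 h. TOC1 averaged 14.6 FPKM with and without MeJA at 1 h (95% interval of the log2 difference -0.23 to 0.23) and differed by 0.07 (-0.16 to 0.29; limma adjusted p = 0.932) at 0.5 h.

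Genes with a profile like that of a clock locus were sought by the Pearson correlation of log2(FPKM + 1) over the 8 libraries, among 15401 other genes averaging at least 5 FPKM. As the libraries fall into 2 times, such a correlation carries the shared time difference, and it is given as a description. The gene most like LHY1 was Potri.012G116500 (r = 0.97), at 26.9 FPKM on average at 1 h and 22.9 FPKM at 0.5 h, and 11 genes exceeded 0.9. The gene most like TOC1 was Potri.010G147600 (r = 0.997), at 10.2 FPKM at 1 h and 14.2 FPKM at 0.5 h. The gene most like GIGANTEA was Potri.013G121400 (r = 0.99), at 20.8 FPKM at 1 h and 27.7 FPKM at 0.5 h. More genes exceeded 0.9 with TOC1 (1656), GIGANTEA (974) and LHY2 (184) than with LHY1. By Spearman correlation the most similar gene was a different one for each locus, and 734 genes exceeded 0.9 with TOC1, 1295 with GIGANTEA, 992 with LHY2 and 50 with LHY1. The files do not pair these identifiers with names. Over the same 8 libraries LHY1 and LHY2 had a correlation of -0.09, while LHY2 and TOC1 stood at 0.79 and TOC1 and GIGANTEA at 0.78.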

How the data were processed

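RNA-seq libraries of stem cutting bases were analysed from 1 deposited table per library, with groups and replicate numbers taken from the submitters' labels. The authors deposited 1 value per transcript, read here as FPKM: no file header or label gives the unit, and the values are not whole, never negative and not logged. The submitters' processing notes list the aligners HISAT2 2.1.0 and Bowtie2 2.2.3. The sources used here state no quantifier, genome build, annotation or strand use. A table holds 65535 transcripts and ends within chromosome 17. Later identifiers were not analysed here.

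Absolute depth is unknown, so no counting interval is given. Relative depth is the most frequent ratio between libraries of values under 1 FPKM in single-isoform genes, searched among ratios near equal depth only. FPKM were summed over the transcripts of a gene. Genes with at least 1 FPKM in 2 libraries (24347) were fitted as log2(FPKM + 1) in limma 3.58.1 (R 4.3.3), with variance trend, robust moderation and Benjamini-Hochberg adjustment over all genes. Group means gave the contrasts within a time or treatment, and an additive model those over both. Isoform shares were fitted as log2 odds with 0.5 added, for isoforms at 10% to 90% of genes with at least 5 FPKM in every library. The procedure was tested on simulated data.

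The text names the 4 loci, their isoforms and, of the 2 genes planned per locus, the most similar gene for 3 of them, since identifiers without names were kept few. Loci, lists and tests were chosen with earlier results of these data known. Planned lists of other clock genes, tissue markers and promoter motifs needed an annotation or sequences and were not run. Alternatives were scaling, pseudocount, filters, variance prior, replicate block, transcripts, isoform means and leaving out each library.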

Additional observations from a re-analysis of the deposited data

How the results depend on the processing

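The mean over isoforms, a crossed block and the scalings of ratios were added after seeing the data. Of 336 values recomputed under alternatives other than leaving out a library, 310 were classed as unchanged. For tested values this means the same side of the threshold with the same sign, and for counts within 1.5 times. The 310 also hold the Spearman correlation of the gene most like each locus, which has no threshold. That gene was a different one from the gene by Pearson correlation, so its class does not mean the same answer. Over both treatments, quantile normalization gave time differences of -0.26 for LHY2 (now called), -0.11 for TOC1 and -0.21 for GIGANTEA (no longer called). Median centring gave 0.28 for LHY1 (now called), -0.046 for TOC1 and -0.21 for GIGANTEA (no longer called). In untreated cuttings GIGANTEA missed the threshold at -0.36 and -0.35 under these scalings, and TOC1 turned to 0.021 after centring. TOC1 was not called as the mean over isoforms (-0.16) or as the median isoform (-0.16), and the median LHY2 isoform was at -0.20 and called. Single isoforms and means over isoforms lie nearer to the added 1 FPKM than sums do, and the mean leaves the fold in FPKM unchanged. MeJA differences near 0 turned sign: GIGANTEA at 0.5 h was 0.0025 after quantile normalization and 0.0015 after centring, centring gave 0.0063 (0.5 h), -0.026 (1 h) and -0.032 (interaction) for LHY1 and -0.016 for LHY2 at 1 h, and the median LHY1 isoform was at 0.0028 over both times. Quantile normalization turned the difference between the times in the ratio of LHY2 to TOC1 to -0.15 and to GIGANTEA to -0.05. GIGANTEA did not reach the filter of 5 FPKM and has no value there.

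Testing transcripts called 26069 over both treatments (55.3% of transcripts tested, against 60.2% of genes). In untreated cuttings 20126 were called, in MeJA cuttings 17146 and for MeJA at 0.5 h 2. With genes at 1 FPKM, 56 isoform shares were called over time, against 26. Leaving out 1 library at a time, the time difference over both treatments ranged from 0.06 to 0.13 for LHY1, from -0.26 to -0.16 for LHY2, from -0.26 to -0.19 for TOC1 and from -0.43 to -0.34 for GIGANTEA, which stayed called. For MeJA at 0.5 h the ranges were -0.074 to 0.026 (LHY1), -0.17 to 0.012 (LHY2) and -0.064 to 0.0064 (GIGANTEA), with 0 to 1 genes called. For MeJA at 1 h they were -0.072 to 0.093 (LHY1), -0.092 to 0.13 (LHY2) and -0.087 to 0.087 (TOC1), with 0 to 46 genes called, the most without MeJA 1 h replicate 2. For the interaction they were -0.048 to 0.12 (LHY1), -0.011 to 0.21 (LHY2) and -0.15 to 0.021 (TOC1), with 0 to 9 genes called. For MeJA over both times they were -0.043 to 0.023 (LHY1) and -0.085 to 0.017 (LHY2). Isoform shares called over time ranged from 13 to 19. Ratios had no test with a library left out, as the smallest exact permutation p for 4 against 3 is 0.0571, and those of LHY1 kept their sign.

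Replicate numbers did not pair the libraries: same-numbered deviations correlated at -0.116 to 0.033. The replicate block called 14333 genes over both treatments, 11465 untreated and 10132 with MeJA, with TOC1 and GIGANTEA still called (limma adjusted p = 0.0277 and 0.0146). With the MeJA 1 h numbers crossed the counts were 14541, 11879 and 10592. Apart from what is stated above, the cause of these shifts was not tested.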
